A study of Mus musculus with 4 samples.

Results

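Regulatory T cells that lie outside the follicular gate (non-TFR cells) were compared between Prdm1 knockout and control mice, as the array of the sample titled KO non-TFR minus the array of the sample titled WT non-TFR. These are 2 of the 4 arrays of the series, 1 array a side. Knockout mice carried Prdm1fl/flFoxP3YFP-Cre and controls FoxP3YFP-Cre alone, so that both groups express YFP and Cre from the Foxp3 locus and differ in the floxed Prdm1 alleles. Cre in this model is driven by Foxp3 and acts in all cells that turn that gene on. All mice had received NP-OVA, a hapten coupled to a protein, in CFA (complete Freund's adjuvant) and the cells were sorted at day 7. Non-TFR cells were CD4 T cells with the YFP reporter and without CXCR5, with no PD1 requirement stated, whereas the TFR cells of the other pair of arrays carried PD1, CXCR5 and YFP. Total RNA was hybridized to Affymetrix Mouse Gene 2.0 ST arrays. The sources used here do not give the organ, the number of mice behind an array, their age, or any pooling of animals. With 1 array in each group there is no replicate spread and no test, and every value below describes these arrays.

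Prdm1 encodes Blimp-1, a zinc finger repressor that effector lymphocytes turn on as they differentiate and that drives plasma cells away from the B cell programme. In regulatory T cells it marks the effector fraction at mucosal and inflamed sites and is known for its link to interleukin-10. Blimp-1 and Bcl6, which drives the follicular T cell fate, are known to oppose each other. Foxp3 defines regulatory T cells, which restrain other lymphocytes through cytokines, surface receptors, competition for interleukin-2 and, in some settings, cytotoxic granules.

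Levels are log2 intensities and differences are knockout minus control on the log2 scale, so that a difference of 1 is 2-fold. Of 22180 genes measured, 11090 had a mean over the 4 arrays above the median of all genes (5.91), which is called the expression limit. Folds are left out wherever the lower of the levels was under 5.91, since the files used hold no detection calls. Prdm1, the targeted gene, had levels of 7.80 in control and 7.59 in knockout non-TFR cells, a difference of -0.21 (1.15-fold lower), and of 8.21 and 7.32 in control and knockout TFR cells. The middle 95% of genes above the limit spanned -0.44 to 0.68 in non-TFR cells, and Prdm1 lay inside it. The Prdm1 value is a single summary over the transcript, and a probe outside the deleted part checks nothing. Foxp3 stood at 12.45 and 12.42 in control and knockout non-TFR cells, and Cd4 at 11.02 and 11.29. The 7 measured markers of T cells differed by at most 0.12 in size, led by Cd5 at -0.12, and Cd3e stood at 12.96 and 13.03. Where a gene was covered by more than 1 probe above the limit, the differences of the brightest and the next probe lay a median of 0.18 apart over 371 genes, and 0.73 at the 95th percentile. Across these genes the probes' differences correlated weakly (Pearson r 0.14, a description across genes of the same arrays).

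Markers of B cells, NK cells, macrophages, granulocytes, erythroid and gamma delta T cells were mostly dim. Other lists were not, with 6 of 9 germinal centre B cell genes above the limit. The same held for 6 of 10 plasma cell genes and 6 of 8 CD8 T cell genes. In the B cell list 9 of 11 measured genes lay below the limit in both non-TFR arrays, with Cd79a at 5.69 and 5.64 and Ms4a1 at 4.12 and 4.07 in control and knockout. Its summed level, the log2 of the added linear intensities, was 9.24 in control and 9.52 in knockout cells, with Cd79b at 8.08 and 8.35 and Cd22 at 5.99 and 7.04. The summed level was 10.72 and 10.86 for 9 germinal centre B cell genes, 10.80 and 10.90 for 10 plasma cell genes, and 10.16 in both arrays for 8 CD8 T cell genes. It was 8.17 and 8.28 for 8 NK cell genes, 11.44 and 11.49 for 15 genes of macrophages, monocytes and dendritic cells, and 8.36 and 8.28 for 12 granulocyte and mast cell genes. The summed level was low for the 2 measured erythroid genes (6.69 and 6.84) and 4 gamma delta T cell genes (7.66 in both arrays). The largest differences in these lists were those of Cd22 (1.06), the NK cell receptor Klrb1c (4.77 and 5.75), Cd160 of the CD8 T cell list (6.31 and 7.07) and the plasma cell gene Derl3 (5.25 and 5.97). Lyz2 (4.22 and 4.08), Csf1r (5.56 and 5.24) and Ncr1 (4.46 and 4.62), which define macrophages and NK cells, lay below the limit, and Cd8b1 stood at 9.42 and 9.29 beside Cd8a at 5.60 and 5.50. The brightest genes of the macrophage list were Cst3 (10.91 and 10.93), Cd209a (8.24 and 8.44) and Cd68 (7.47 and 7.59). Median differences of these lists were 0.09 for B cells, 0.25 for germinal centre B cells, 0.22 for plasma cells, 0.07 for CD8 T cells, 0.17 for NK cells, 0.02 for the macrophage list, -0.02 for granulocytes, 0.16 for erythroid cells and 0.04 for gamma delta T cells. In bulk samples fewer cells of a type and less RNA per cell cannot be told apart.

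More genes were 2-fold higher than 2-fold lower in the knockout. Among the 11090 genes above the limit 86 (0.775%) were 2-fold or more above control in knockout non-TFR cells and 14 (0.126%) were 2-fold or more below it, and 409 (3.69%) and 121 (1.09%) were at least 1.5-fold apart. Over all 22180 genes, 96 (0.433%) were 2-fold higher, 17 (0.0766%) 2-fold lower, 541 (2.44%) 1.5-fold higher and 225 (1.01%) 1.5-fold lower. A difference above 0 was found for 56.1% of all genes, and the median was 0.03. This lean in sign depends on the scaling, since among 11565 probes with 1 gene above the limit 55.3% were above 0 after quantile normalization and 51.0% as deposited. Of unnamed probes above the limit 43.3% were above 0. These shares are the background for each list below, whose counts cover all measured members. Above the 75th percentile of expression 38 genes were 2-fold higher and 1 was 2-fold lower. Of the 86 higher genes 23 had a control value under the limit, and of the 14 lower genes 2 had a knockout value under it. The limit is a mean over all 4 arrays, so that some genes passed it through the TFR arrays. Gab2, for example, lay under it in both non-TFR arrays (4.57 and 5.64) and stood at 6.65 and 7.63 in the TFR arrays.

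**Figure D1:**
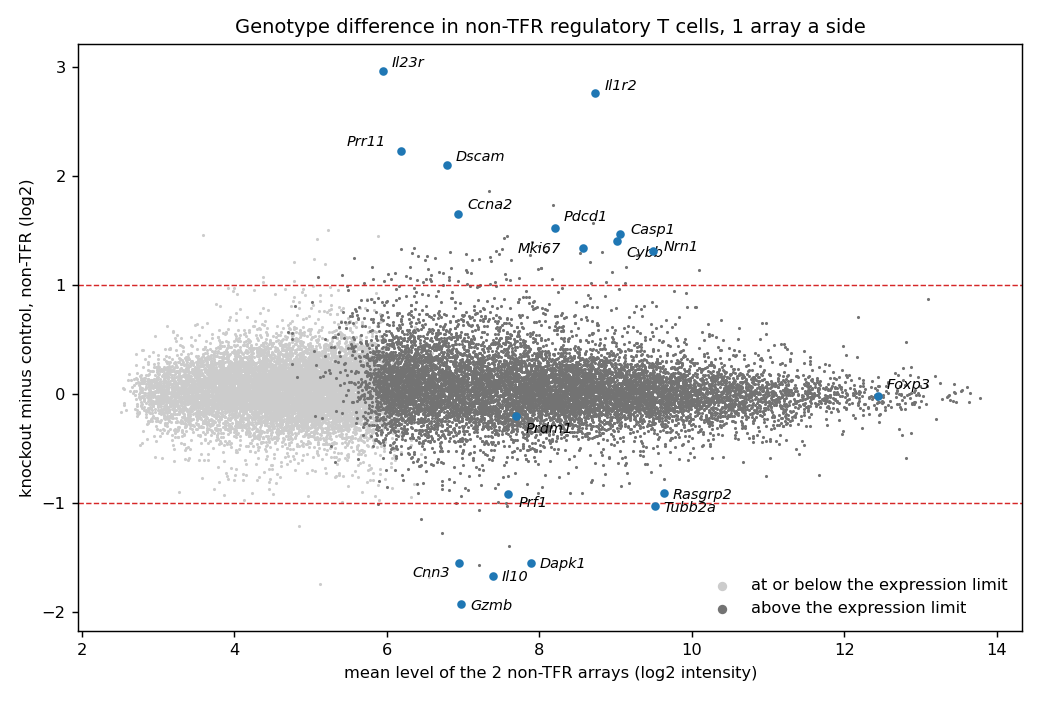
Difference between knockout and control non-TFR cells (y axis, log2) against the mean level of the 2 non-TFR arrays (x axis, log2 intensity); each point is 1 of 22180 genes and the dashed lines mark 2-fold. Among genes above the expression limit Il23r (2.96) and Il1r2 (2.76) lie highest and Gzmb (-1.93) and Il10 (-1.67) lowest, with Foxp3 (-0.02) and Prdm1 (-0.21) near the centre.

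The 2 genes that stood farthest above the rest encode receptors of inflammatory cytokines. Il23r, the chain that gives T cells sensitivity to interleukin-23, stood at 4.47 in control and 7.43 in knockout non-TFR cells, a difference of 2.96, with the control value below the limit. Il1r2, a decoy receptor that binds interleukin-1 without signalling, stood at 7.35 and 10.11, a difference of 2.76 (6.75-fold higher). The knockout non-TFR level of Il1r2 approached that of control TFR cells (10.70). Prr11, a gene of dividing cells, stood at 5.07 and 7.30 (2.22), and Dscam, a cell adhesion molecule best known in neurons, at 5.74 and 7.84 (2.10), above both TFR arrays (7.52 and 7.53). These 4 genes were the highest of the 11090 above the limit.

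A further 16 genes made up the 20 highest. Ccna2, the cyclin of S phase and mitosis, stood at 6.12 and 7.76 (3.13-fold higher), Pnkd at 7.92 and 9.49 (2.96-fold) and Pdcd1, which encodes PD1, at 7.44 and 8.96 (2.86-fold). Casp1, the inflammatory caspase that matures interleukin-1 beta, stood at 8.33 and 9.79 (2.75-fold), and Casp4, the caspase that senses cytosolic lipopolysaccharide, at 8.17 and 9.47 (2.47-fold). Cybb, the catalytic subunit of the phagocyte NADPH oxidase, stood at 8.32 and 9.72 (2.65-fold). Both caspases and Cybb were brighter still in control TFR cells, at 9.97, 9.58 and 10.33. The membrane protein gene Stom (6.82 and 8.25), the microtubule-binding Clip3 (6.85 and 8.30), the soluble guanylate cyclase subunit Gucy1a1 (7.21 and 8.60) and the membrane glycoprotein gene Gpm6b (7.32 and 8.67) differed by 1.35 to 1.44. Mki67, Sostdc1, Cdk1, Ttc39c, Ccr6 and Nrn1 completed the set at 1.31 to 1.34. Predicted genes and immunoglobulin segments were not ranked, and in the range of these 20 lay Ighg3 (6.42 and 8.27) and the predicted gene Gm11454 (7.32 and 9.05). In the plot of levels the control TFR array lay above the knockout non-TFR array for Mki67 (11.31) and Pdcd1 (9.86) and below it for Dscam.

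**Figure D2:**
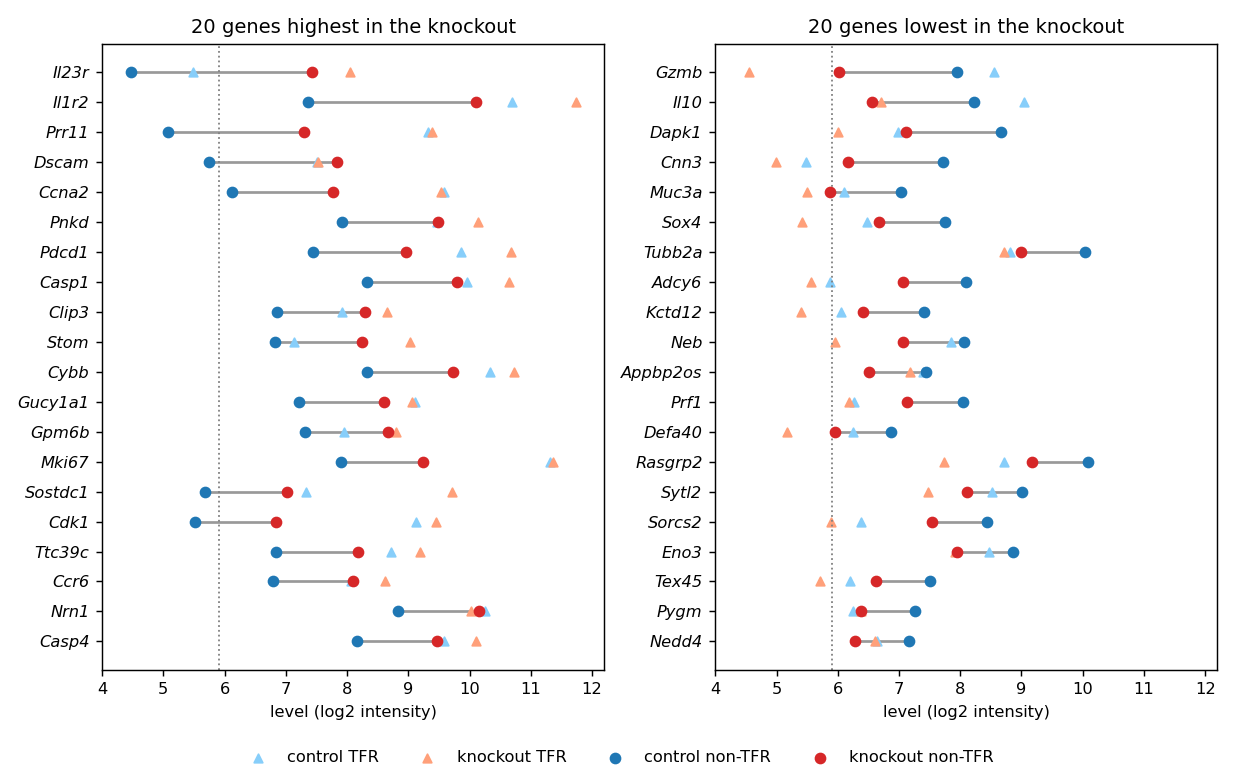
Level (log2 intensity, x axis) of the genes at both ends of the ranking above the expression limit (20 highest, 20 lowest; dotted line, 5.91); circles are the non-TFR arrays, triangles the TFR arrays, 1 array each. Il1r2 goes from 7.35 in control to 10.11 in knockout non-TFR cells, and Gzmb from 7.94 to 6.01.

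The 2 lowest differences among genes above the limit belonged to genes of effector function. The limit is a mean over all 4 arrays, so the TFR arrays also decided which genes were ranked. Ly6c1 (7.39 and 5.72, a difference of -1.68) was left out in this way, with TFR levels of 4.24 and 4.90. Gzmb, the granzyme that cleaves caspases in target cells, stood at 7.94 in control and 6.01 in knockout non-TFR cells, a difference of -1.93 (3.81-fold lower). Il10, the anti-inflammatory cytokine, stood at 8.22 and 6.55, a difference of -1.67 (3.19-fold lower). Dapk1, a kinase of cell death pathways, stood at 8.67 and 7.12, and the actin-binding calponin gene Cnn3 at 7.72 and 6.17, both 2.93-fold lower. Sox4, a transcription factor of lymphocyte development, stood at 7.75 and 6.68 (2.10-fold lower), the adenylate cyclase Adcy6 at 8.09 and 7.06 (2.04-fold) and the tubulin gene Tubb2a at 10.03 in control with a difference of -1.03 (2.04-fold). The mucin gene Muc3a differed by -1.15, with its knockout value of 5.88 below the limit. Neb, the gene of the giant muscle protein nebulin, stood at 8.07 and 7.07. Kctd12 stood at 7.42 and 6.41 on its brighter probe and at 6.22 and 6.09 on another, so that its probes disagreed.

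The remaining members of the 20 lowest were less than 2-fold apart. They held the pore-forming protein gene Prf1 (8.05 and 7.13), Rasgrp2, which activates Rap1 and through it integrins (10.09 and 9.17), and Sytl2, a vesicle docking protein (9.01 and 8.11). Sorcs2 (8.44 and 7.53), the muscle enolase Eno3 (8.86 and 7.95), the glycogen phosphorylase Pygm (7.26 and 6.38) and the ubiquitin ligase Nedd4 (7.16 and 6.29) were alike in size, between -0.87 and -0.91. Defa40, Appbp2os and Tex45 differed by -0.91, -0.94 and -0.88.

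Killing genes were split. Of 23 measured cytotoxic granule and killing genes 12 were above 0, none was 2-fold higher and Gzmb alone was 2-fold lower, with a median of 0.00. Prf1 and Gzmc (6.39 and 5.72) were at least 1.5-fold lower, and the death ligand Fasl stood at 8.31 and 7.82. Tnfsf10, the death ligand TRAIL, stood at 8.07 and 8.58, the granzyme B inhibitor Serpinb9 at 7.12 and 7.56, and the granule membrane protein gene Nkg7 at 9.12 and 9.56. Suppressor mediators were also split. Of 15 measured, 10 were above 0, with Lag3, an inhibitory receptor that binds MHC class II, 2-fold higher and Gzmb and Il10 2-fold lower (median 0.11). Nt5e, the ectoenzyme CD73, stood at 10.05 and 10.72. Ebi3, a subunit of interleukin-35, stood at 6.89 and 7.74 on its brighter probe and at 4.68 and 4.46, below the limit, on another. Fgl2, a secreted suppressor protein, stood at 7.51 and 7.21.

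Genes of cell division stood higher in the knockout. Of 54 measured genes of mitosis and the spindle 52 were above 0, 21 stood 1.5-fold higher or more and 7 of these 2-fold. The median was 0.51 and no member was 1.5-fold lower. The list was dim in non-TFR cells, with 18 members below the limit in both arrays and a median control level of 5.75, against 8.10 in control TFR cells. Mki67, the proliferation marker, stood at 7.90 and 9.24 (2.53-fold higher), below the TFR levels of 11.31 and 11.37. The mitotic kinase Cdk1 stood at 5.52 and 6.84, the spindle proteins Nusap1 and Tpx2 at 5.78 and 7.04 and at 5.72 and 6.88, with control values below the limit. The DNA topoisomerase Top2a stood at 6.49 and 7.61, the mitotic cyclin Ccnb2 at 6.91 and 7.93, and the kinase Plk1 at 6.70 and 7.67. Kinetochore and centromere genes had a median of 0.21 with 17 of 22 above 0 and 6 at least 1.5-fold higher. Among these were Ska1 (5.22 and 5.98), with its control value below the limit, Cenpm (6.38 and 7.12) and Knl1 (5.23 and 5.88), below it in both arrays. Of the 22 kinetochore and centromere genes 8 lay below the limit in both non-TFR arrays. DNA replication genes had a median of 0.26 with 42 of 48 above 0 and 9 at least 1.5-fold higher. They included the replication factor Ticrr (5.92 and 6.85), the polymerase Pole (6.75 and 7.55), the maintenance methylation factor Uhrf1 (7.64 and 8.43) and the ribonucleotide reductase subunit Rrm2 (6.30 and 7.03). Dimmer probes of Pole (4.58 and 4.62) and Rrm2 (3.50 and 3.79), below the limit, differed less. DNA repair genes had a median of 0.25, with 24 of 29 above 0 and 8 below the limit in both non-TFR arrays. Brca2 (6.10 and 6.69) and Bard1 (5.36 and 5.99) passed the 1.5-fold limit, Bard1 from a control value below the expression limit.

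Regulators of entry into the cycle differed less. Of 29 cyclins, CDKs and CDK inhibitors 15 were above 0 (median 0.01), with Ccna2 and the repressor E2f8 (5.97 and 7.11) 2-fold higher and Cdkn2d, a CDK inhibitor, at 9.71 and 9.07. Cdkn2c, another inhibitor of the same family, stood at 6.07 and 6.76. Of 29 histone genes measured with a probe of their own 14 were above 0 (median -0.03), led by H2bc3 at 9.05 and 9.90. A probe shared by 10 H2ac genes, H2ac4 among them, stood at 4.27 and 6.18, while a probe shared by H2bc4, H2bc6 and H2bc8 stood at 8.12 and 7.03. The share of cycling cells was not measured.

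The starts of the genes in the cell division lists were searched for sequence elements that are textbook features of late cell cycle promoters. TTTGAA is the core of the cell cycle homology region, called CHR below, and CCAAT is the box bound by NF-Y. Both were sought on either strand in the 250 bases before the start given by RefSeq (GRCm38.p6), using the first listed start of each gene. Of 44 mitosis and spindle genes with such an entry 16 (36.4%) held the CHR, 30 (68.2%) the CCAAT box and 13 (29.5%) both. Among 16990 genes of the array with an entry 14.2% held the CHR, 35.6% the CCAAT box and 5.17% both. In DNA replication genes the CCAAT box was held by 65.8% of 38 and the CHR by 13.2%, and GGCGGGA, an E2F-like element, by 28.9% against 12.9% of all. Kinetochore genes held the CHR, the CCAAT box and the E2F-like element in 21.1%, 57.9% and 21.1% of 19, and DNA repair genes in 7.69%, 46.2% and 26.9% of 26. A match is a description of the letters and no site was measured. The shares depend on which genes were put in the lists and use no value of the arrays. The 200 bases before the start of Cdk1 (chr10:69352913-69353112, minus strand), Mki67 (chr7:135716380-135716579, minus strand), Ccnb2 (chr9:70421555-70421754, minus strand) and Prr11 (chr11:87108715-87108914, minus strand) are shown. They are picked examples of genes that were 2-fold higher, and Prr11 was the highest of the list. Nusap1, Tpx2 and Top2a differed more than Ccnb2 and are not shown, so the examples do not stand for the list. Capitals mark the CHR and the CCAAT box on either strand.
Cdk1: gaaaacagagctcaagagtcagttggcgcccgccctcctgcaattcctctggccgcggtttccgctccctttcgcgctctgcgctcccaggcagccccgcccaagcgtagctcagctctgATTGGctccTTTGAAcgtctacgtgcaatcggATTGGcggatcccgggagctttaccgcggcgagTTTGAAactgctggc
Mki67: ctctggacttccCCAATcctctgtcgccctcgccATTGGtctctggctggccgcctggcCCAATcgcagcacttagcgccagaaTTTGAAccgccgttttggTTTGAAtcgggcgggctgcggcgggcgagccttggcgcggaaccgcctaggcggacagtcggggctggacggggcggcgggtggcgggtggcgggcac
Ccnb2: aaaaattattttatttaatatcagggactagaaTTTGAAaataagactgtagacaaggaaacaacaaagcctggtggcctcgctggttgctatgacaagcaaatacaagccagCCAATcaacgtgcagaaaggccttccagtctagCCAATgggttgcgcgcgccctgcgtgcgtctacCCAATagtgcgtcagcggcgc
Prr11: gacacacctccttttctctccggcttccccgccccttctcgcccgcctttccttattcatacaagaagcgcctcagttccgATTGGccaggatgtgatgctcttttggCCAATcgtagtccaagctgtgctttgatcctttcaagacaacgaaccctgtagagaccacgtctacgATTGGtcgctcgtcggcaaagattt
Cdk1 held 2 CHR and 2 CCAAT elements in this window, Mki67 2 and 3, Ccnb2 1 and 3, and Prr11 none and 3.

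Most measured genes of the T follicular programme list were higher in cells sorted for the absence of CXCR5. The list was written with earlier results of these data known, and 27 of its 30 measured genes were also held by other lists. Of 30 measured genes of the T follicular programme 27 were above 0, 10 stood 1.5-fold higher or more and 4 of these 2-fold. The median was 0.41 and no member was 1.5-fold lower. Besides Il1r2 these were Sostdc1, a secreted antagonist of BMP and Wnt signals (5.68 and 7.02), the transcription factor Cebpa (6.40 and 7.69, 2.44-fold) and Fam43a (7.00 and 8.09). Sh2d1a, the adaptor SAP of SLAM receptors, stood at 8.87 and 9.67, the factor Batf at 8.99 and 9.70, Tox2 at 7.14 and 7.84 and Maf at 8.35 and 9.02. Bcl6 stood at 7.84 and 8.10, within the middle 95% of genes. Cxcr5, the gene of the receptor that defines the gate, stood at 8.06 in control and 8.90 in knockout non-TFR cells (1.79-fold higher), against 9.52 and 10.39 in the TFR arrays. Pdcd1 and Cxcr5 were thus higher in the same array as the follicular and cell division lists, and their part in these differences was not tested. In the TFR pair Pdcd1 and Cxcr5 differed by 0.82 and 0.87, beside medians of 0.39 for the T follicular programme and 0.08 for mitosis and spindle. TFR cells were sorted for both proteins, and the part of these genes was not tested there either.

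Regulatory identity genes were on the higher side. Of 24 measured members of the Treg core list 18 were above 0 and 5 at least 1.5-fold higher. The median was 0.23 and no member was 1.5-fold lower. Nrn1, the gene of the small surface protein neuritin, stood at 8.84 and 10.15 (2.48-fold higher), the inhibitory receptor Tigit at 9.54 and 10.34, and the integrin chain Itgae, which binds E-cadherin, at 8.94 and 9.72. Gpr15, a receptor for homing to the colon, stood at 6.15 and 6.78. Il2ra (12.17 and 12.24), Ctla4 (11.11 and 11.22) and the Helios gene Ikzf2 (9.70 and 10.15) differed by 0.07, 0.11 and 0.46. Of 29 effector Treg genes 22 were above 0 (median 0.49), with 11 differing upwards and 3 downwards by 1.5-fold or more. Lag3 (7.24 and 8.52), Ccr6 (6.78 and 8.09) and Cxcr3 (8.40 and 9.52) were 2-fold higher, and Gzmb, Il10 and the inhibitory lectin Klrg1 (9.59 and 8.77) were the lower ones. The mean of the effector list was 0.26.

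**Figure D3:**
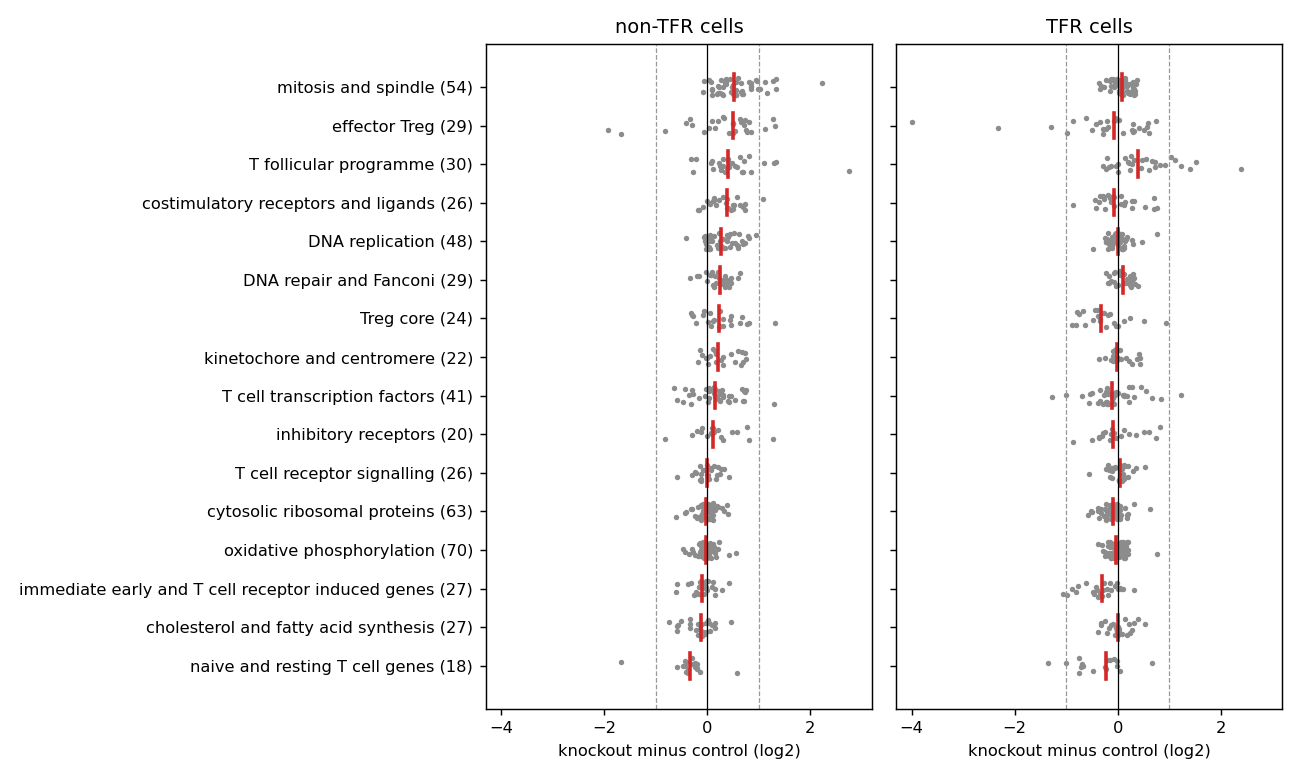
Difference between knockout and control (x axis, log2) of every measured member (grey points) of 16 gene lists in non-TFR cells and, for comparison, in TFR cells; red bars are list medians, dashed lines 2-fold, and numbers in brackets the measured members. The mitosis and spindle median is 0.51 in non-TFR and 0.08 in TFR cells, and the Treg core median 0.23 and -0.32.

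Receptors at the T cell surface differed by family. Costimulatory receptors and ligands had 23 of 26 members above 0 and a median of 0.37, with Tnfsf14, the ligand LIGHT (6.28 and 7.35), highest, and, Tnfrsf8, which encodes CD30 (7.71 and 8.44), Tnfsf11, which encodes RANKL (7.93 and 8.65), and Icos (8.85 and 9.47) among the next. Inhibitory receptors had 14 of 20 above 0 and a median of 0.11, with Klrg1 lowest and Lag3 highest in a list that leaves out the gate gene Pdcd1 (1.52). Tigit (9.54 and 10.34), which the Treg core list also holds, Cd160 (6.31 and 7.07) and Btla (8.86 and 9.43) were among the higher ones. In the SLAM family 10 of 11 were above 0 (median 0.11), with Slamf7 at 7.19 and 7.83. Chemokine receptors other than the gate gene Cxcr5 (0.84) had 13 of 20 above 0 (median 0.10), and 5 were at least 1.5-fold higher. Besides Ccr6 and Cxcr3 these were Ccr4 (7.51 and 8.36), Ccr8 (7.68 and 8.43) and Ccr10 (5.25 and 5.88), while Ccr7 (10.59 and 10.21) and Ccr2 (6.28 and 5.87) were lower. Among 23 chemokine ligands (median 0.07, 14 above 0) Cxcl10, a ligand of Cxcr3, stood at 7.01 and 8.24 and the lymphotactin gene Xcl1 at 6.76 and 7.98, both 2-fold higher.

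Cytokine genes and their receptors were mostly flat apart from single members. The IL-23, IL-12, IL-6 and IL-17 axis had 14 of 23 genes above 0 and a median of 0.16, with Il23r and Ccr6 2-fold higher and the aryl hydrocarbon receptor Ahr at 7.99 and 8.70. Il17a stood at 4.89 and 5.26, below the limit in both arrays. In the IL-1 family 12 of 17 were above 0 (median 0.09). Il18r1, a chain of the interleukin-18 receptor, stood at 8.36 and 9.16 and Il18 itself at 4.67 and 5.58. Il1rn (5.26 and 5.04) and Il1r1 (4.91 and 5.06), the antagonist and the signalling receptor, lay below the limit. Of 25 helper cytokines 17 were above 0 (median 0.16), with Il10 the lowest and the highest being Csf1 (8.29 and 9.09), Tnfsf11, Lif (6.83 and 7.40) and Tnf (9.04 and 9.60). Il4 stood at 5.41 and 5.88. Common gamma chain and related receptors had a median of 0.07 with 9 of 15 above 0, with Il13ra1 (4.87 and 5.95) 2-fold apart from a value below the limit and Il7r at 9.85 and 10.42. STAT and SOCS genes had a median of 0.06 with 11 of 19 above 0 and none 1.5-fold apart, led by Stat4 (10.74 and 11.07).

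Transcription factors included members on both sides. Of 41 measured, 30 were above 0 (median 0.15), with 7 differing upwards and 2 downwards by 1.5-fold or more. After Cebpa the higher ones were Zbtb32 (6.98 and 7.73), the type 1 factor Tbx21 (6.80 and 7.53), Batf, Ahr, Tox2 and Maf, and the lower ones Ets2 (9.90 and 9.25) and Satb1 (10.55 and 9.97), which organizes chromatin in resting T cells. Of 20 genes reported as repressed by Blimp-1 in lymphocytes 16 were above 0, with a median of 0.20. Il23r and Ccr6 were 2-fold and Cxcr5 and Tbx21 1.5-fold higher, and Bach2 (9.17 and 8.71) and Ccr7 were among those below 0. Of the 20 genes 6 lay below the limit in both non-TFR arrays, and 18 were also held by other lists. In the TFR pair 9 of the 20 were above 0, with a median of -0.01. The element AGNGAAAG, a core of the Blimp-1 motif that overlaps interferon response elements, was found on either strand before the start of 3 of 15 of these genes, 1 of 16 of the highest genes with an entry (6.25%), 0 of 13 of the lowest and 6.95% of all. DNA repair genes held it in 19.2% of 26 and mitosis and spindle genes in 2.27% of 44.

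Genes typical of naive T cells stood lower. Of 18 measured only Il7r was above 0, and the median was -0.35. Ly6c1 (7.39 and 5.72, the latter below the limit) differed most, by -1.68, and shares close sequence with Ly6c2 (10.02 and 9.24), so that their signals are uncertain. Dapl1 and Foxp1 stood at 8.44 and 10.42 in control with differences of -0.43 and -0.42, and S1pr1, the receptor for leaving lymphoid organs, at 11.67 and 11.23. Of 10 Ly6 surface proteins 4 were above 0 (median -0.09). Egress and positioning genes had a median of -0.01 with 9 of 18 above 0, with the leukotriene receptor Ltb4r1 (6.66 and 7.34) highest and Klf2, which drives S1pr1, at 10.52 and 10.16. Integrins, selectins and adhesion genes also had a median of -0.01, with 13 of 28 above 0. Dscam and the integrin chains Itgb1 (9.29 and 10.24), Itgae and Itgb8 (8.15 and 8.79) were higher, and Selp (7.29 and 6.48) and Itgb3 (8.45 and 7.71) lower. RGS proteins had a median of 0.06 (12 of 21 above 0), led by Rgs9 (8.02 and 8.60).

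Components of T cell receptor signalling differed little, whereas immediate early and receptor induced genes leaned lower. T cell receptor signalling components had a median of -0.00 with 12 of 26 above 0, and the kinase Txk (10.12 and 9.53) differed most. Immediate early and receptor induced genes had a median of -0.10 with 7 of 27 above 0. Fosl2 (10.26 and 9.65) and Nr4a1, an orphan nuclear receptor (13.10 and 12.51), were lowest and the 2 members at least 1.5-fold lower. Irf4 (8.58 in control, difference 0.41) was highest. In the TFR pair the median of this list was -0.29, with 4 of 27 above 0. TGF-beta pathway genes had a median of -0.01 (10 of 22 above 0), with Tgfb3 at 6.41 and 5.84. Adenosine and cyclic AMP genes had a median of 0.09 (13 of 22 above 0). In that list Adcy6 was 2-fold lower and the phosphodiesterase Pde3b stood at 6.13 and 5.23. Wnt, BMP and secreted antagonists had a median of 0.16 (16 of 24 above 0), with Penk, the precursor of enkephalins, at 8.56 and 9.52 and Bmp7 at 8.86 and 9.62.

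Genes of cell death and innate sensing gave single large values rather than list shifts. Apoptosis and survival genes had a median of -0.01 with 13 of 28 above 0. Casp1 and Casp4 were 2-fold higher, Dapk1 was 2-fold lower, Bcl2a1a stood at 9.12 and 9.93, and Bcl2l11, the pro-apoptotic BIM, at 8.65 and 7.88. Toll-like receptors and adaptors had a median of 0.03 (13 of 21 above 0), led by Ticam2 (5.57 and 6.29). Interferon response genes had a median of -0.03 with 16 of 36 above 0, with Oas2 (7.88 and 7.05) lowest and Iigp1 (9.44 and 10.05) highest. MS4A genes had a median of -0.03 (9 of 20 above 0), with Ms4a4c lowest at 9.45 and 8.80.

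The 19 measured genes of MHC and antigen presentation had a median of 0.02, with 12 above 0 and H2-Ab1 alone 2-fold higher. H2-Ab1 stood at 6.06 and 7.10 and H2-Aa at 5.46 and 5.98. Outside the list and chosen after their values were seen, the class II peptide loading gene H2-DMb2 stood at 6.18 and 7.48, and a probe shared by Cd74, the class II invariant chain, and Mir5107 stood at 9.06 and 10.26. Of 21 immunoglobulin segments 12 were above 0 (median 0.08). Ighg3 stood at 6.42 and 8.27 on one probe and at 4.99 and 4.17 on another, and Ighm at 12.58 and 13.05 on its brightest probe and at 11.60 and 12.81 on the next. A probe shared by Ighg3, Ighv1-47 and Ighm stood at 8.60 and 10.15. These genes are typical of B cells, whose summed marker level was 9.24 and 9.52. Of the 11 B cell markers 9, Cd79a and Ms4a1 among them, lay below the limit in both arrays, while Cd22 differed by 1.06 and Cd79b by 0.27. The part of B cell RNA in these values was not tested. T cell receptor segments had a median of -0.10 (3 of 8 above 0).

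Metabolic and housekeeping lists stayed close to the median of all genes, with cholesterol synthesis the lowest of them. Of 27 cholesterol and fatty acid synthesis genes 7 were above 0 and the median was -0.12. Scd1 had the most negative value from levels below the limit (4.38 and 3.63). Lss (6.42 and 5.83), the farnesyl diphosphate synthase Fdps (9.38 and 8.79), the regulator Srebf2 (10.69 and 10.11) and Sqle (8.50 and 7.99) were lower, none of them 2-fold. Glycolysis (median 0.06, 11 of 20 above 0), oxidative phosphorylation (-0.03, 25 of 70), cytosolic ribosomal proteins (-0.03, 28 of 63) and the unfolded protein response (0.01, 13 of 25) had no member 2-fold apart. Heat shock genes had a median of 0.06 (11 of 17 above 0). Hspa1a (12.66 and 13.53) and Hspa1b (11.83 and 12.54), near-identical genes of the inducible HSP70, were higher, a probe shared by both stood at 7.06 and 8.34, and Bag3, a partner of HSP70, stood at 8.11 and 8.83.

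Small RNA genes leaned the other way. Small nucleolar RNA genes had a median of -0.09 with 29 of 73 above 0 and none 2-fold apart. Of 472 microRNA genes 191 were above 0, 1 was 2-fold higher and 3 were 2-fold lower, with a median of -0.05. Only 108 of them lay above the limit. The 3 lower ones were Mir1967, whose knockout value lay below the limit (5.99 and 4.25), Mir677 (8.29 and 6.90) and Mir467e (7.37 and 6.09). The higher one, Mir701 (2.86 and 4.32), lay below the limit in both arrays. Mir19a, at 7.96 and 6.96, was just short of 2-fold lower. The array reads the locus and not the arm, so that mature and precursor RNA cannot be told apart. The mature sequences that RefSeq (GRCm38.p6) lists for Mir677 and Mir19a are given as the identity of 2 of the lower loci, with the seed (bases 2 to 8) in capitals.
mmu-miR-677-5p: uUCAGUGAugauuagcuucuga
mmu-miR-677-3p: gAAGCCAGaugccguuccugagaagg
mmu-miR-19a-3p: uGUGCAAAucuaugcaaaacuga
The 3 seeds differ, and Mir19a belongs to the cluster known for its role in lymphocyte proliferation.

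The genotype difference was also read in the TFR pair, which shares no array with the non-TFR pair but was normalized together with it. Across the 11090 genes above the limit the differences of the pairs correlated weakly (Pearson 0.35, Spearman 0.28), given as a description across genes, which are not replicates. In TFR cells 49 genes (0.442%) were 2-fold or more above control and 26 (0.234%) as far below it (0.289% and 0.162% of all genes), and 52.4% of all genes were above 0. Of the 86 genes 2-fold higher in non-TFR cells 14 were also 2-fold higher in TFR cells and 71 were above 0 there, with a median of 0.48. Of the 14 genes 2-fold lower in non-TFR cells 4 were also 2-fold lower in TFR cells and all 14 were below 0, with a median of -0.64. Il23r differed by 2.96 in non-TFR and 2.55 in TFR cells, Stom by 1.43 and 1.91, Cebpa by 1.29 and 1.24, and Sox4 by -1.07 in both. Gzmb stood at 8.54 and 4.55 in control and knockout TFR cells, the latter below the limit. Il10 differed by -1.67 and -2.33, and Neb, 2-fold lower in non-TFR cells, stood at 7.84 and 5.95 in TFR cells.

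Other genes were apart in the non-TFR pair and close to 0 in the TFR pair. Prr11 differed by 2.22 and 0.07, Dscam by 2.10 and 0.01, Ccna2 by 1.65 and -0.04, Mki67 by 1.34 and 0.05 and Gucy1a1 by 1.39 and -0.06. Tubb2a differed by -1.03 and -0.11. The list medians followed this for mitosis and spindle (0.51 and 0.08), kinetochore (0.21 and -0.01), DNA replication (0.26 and 0.00) and costimulatory genes (0.37 and -0.08). Effector Treg genes had medians of 0.49 and -0.08, with 12 of 29 above 0 in TFR cells. DNA repair genes had medians of 0.25 and 0.11, with 20 of 29 above 0 in TFR cells. For the T follicular programme (0.41 and 0.39) and naive genes (-0.35 and -0.23) the medians had the same sign in both pairs. Whether the pairs differ cannot be tested with 1 array a group.

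**Figure D4:**
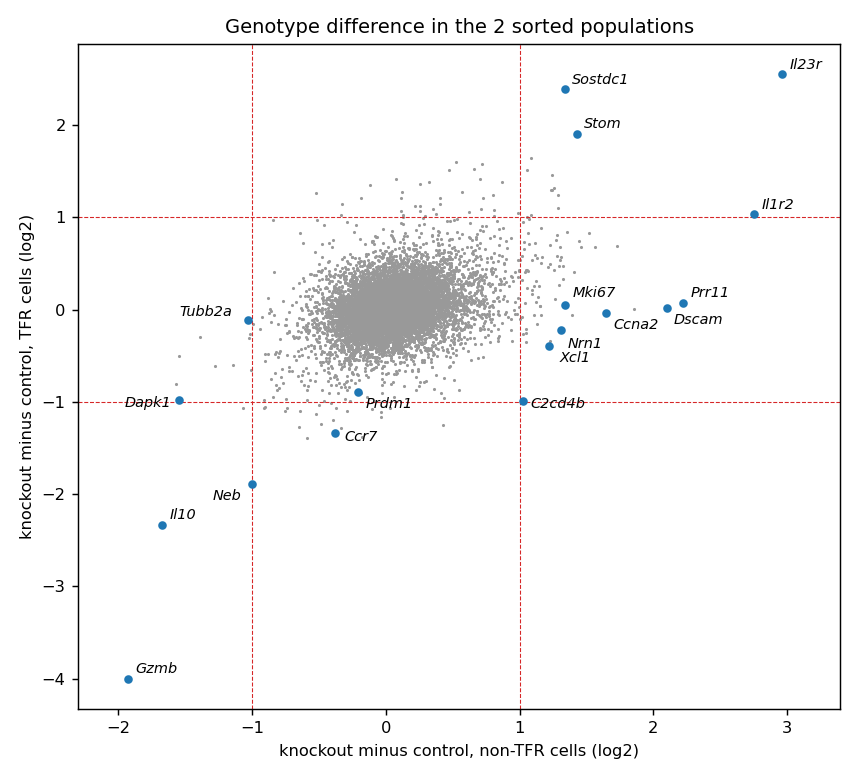
Genotype difference in TFR cells (y axis, log2) against that in non-TFR cells (x axis, log2) for the 11090 genes above the limit; dashed lines mark 2-fold. Il23r, Stom and Sostdc1 lie high and Gzmb and Il10 low on both axes, whereas Prr11, Dscam and Ccna2 lie beyond 2-fold on the x axis alone.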

How the data were processed

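Values came from the deposited table of the series, 1 log2 value per transcript cluster (a probe here) and array, as processed by the authors; the log2 scale was read from the values (2.23 to 13.82). The submitters' processing notes list MAS5 with no version or role. How background was corrected and probes were summarized is not given in the sources used here. All 41345 probes were quantile normalized over the 4 arrays (limma 3.58.1, R 4.3.3). The deposited medians were 5.69 and 5.68 for the TFR arrays and 5.58 for both non-TFR arrays. The platform annotation gave 1 gene for 23521 probes, several for 1814 and none for 16010; 23328 matched the reference gene table by Entrez identifier and no symbol changed. For 1082 genes with several probes the probe with the highest mean was used. The build of the probe design is not given.

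Sample titles gave the groups. No test is possible with 1 array a group, and precision is limited by the number of arrays. Named genes were the 20 highest and 20 lowest above the expression limit (without predicted genes, receptor and immunoglobulin segments, small RNAs and olfactory receptors), up to 6 members per list with the largest difference, the brightest markers of other cell types, 10 fixed genes and 6 of opposite sign in TFR cells. Ccr7, Cd8a, Ets2, Fgl2, Foxp1, Gm11454, H2-DMb2, Il1r1, Il4, Itgb8, Lyz2, Maf, Ms4a1, Ncr1, Nkg7, Plk1, Serpinb9 and the probes of several genes were added after seeing values. All 58 lists and the comparison were chosen with earlier results of these data known. Only the differences and 2-fold counts were run on simulated gene levels, with an assumed noise. Normalization, probe choice, list summaries and the promoter search were not tested in this way. Alternatives were the deposited values, cyclic loess, centring on the 75th percentile, quantile normalization of the non-TFR arrays alone, the mean of all probes, a floor at the 25th percentile, other filters on dim genes, list means, only members above the limit, members held by 1 list, and a 1.5-fold limit added after seeing the data.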

Additional observations from a re-analysis of the deposited data

Results flagged for a closer look

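Values with opposite directions in the non-TFR and TFR pairs were looked at again, and the differences between the pairs were not tested. Nrn1 differed by 1.31 in non-TFR and -0.22 in TFR cells, Xcl1 by 1.22 and -0.39, Ccnb2 by 1.03 and -0.27 and Btbd16 by 1.23 and -0.34. Serpinc1, the antithrombin gene, differed by 1.05 and -0.25, the pseudogene Lamtor3-ps by 1.05 and -0.35, and C2cd4b by 1.03 and -0.99. A dimmer probe of C2cd4b, below the limit, differed by 0.22 in the non-TFR pair. The Treg core median was 0.23 in non-TFR and -0.32 in TFR cells, that of suppressor mediators 0.11 and -0.29, and that of T cell transcription factors 0.15 and -0.11.

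Probes outside the gene comparison also carried differences from the control array. Of 6118 unnamed probes above the limit 50 were 2-fold or more above and 175 (2.86%) as far below control in the non-TFR pair, with a median of -0.05. The balance was thus opposite to that of probes with 1 gene, where 90 were higher and 14 (0.121%) lower. As deposited the unnamed probes gave 47 higher and 183 lower, and in the TFR pair 62 higher and 148 lower. Of 898 probes shared by several genes 10 were higher and 1 was lower.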

How the results depend on the processing

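Without quantile normalization, under cyclic loess, 75th percentile centring or quantile normalization of the non-TFR arrays alone, no list median moved by over 0.1 and no named gene by over 0.2, and Prdm1 ranged from -0.23 to -0.20. With the mean of all probes 17 and with the floor 27 of 341 named genes moved by more than that, none changing sign. Of the 100 genes 2-fold apart, 93 to 99 stayed so under the 6 alternatives for normalization, probes and floor, and none changed sign. Above the 75th percentile of expression 38 genes were 2-fold higher and 1 lower, and with a 1.5-fold limit 409 and 121. As means in place of medians the values were -0.021 for suppressor mediators, which changed sign, 0.26 for effector Treg, 0.52 for the T follicular programme, 0.12 for cyclins and CDKs, 0.32 for the IL-23 axis, 0.31 for the IL-1 family, 0.17 for chemokine ligands, 0.16 for integrins, 0.21 for the SLAM family, 0.39 for genes reported as repressed by Blimp-1, 0.20 for heat shock genes and -0.30 for Ly6 proteins. Over members above the limit medians were 0.13 for histones, 0.30 for the IL-23 axis, 0.34 for the IL-1 family, 0.34 for chemokine receptors, 0.32 for Wnt and BMP genes, 0.20 for CD8 T cell markers and 0.42 for immunoglobulin segments. Without members held by another list they were -0.0078 for the IL-23 axis, which changed sign, -0.24 for naive genes, -0.11 for CD8 T cell and 0.34 for NK cell markers, and with the floor 0.088 for plasma cell and 0.00 for NK cell markers. The cause was not tested. No paired analysis was possible because each group has 1 sample, and leaving out an array leaves no comparison. Lists left with under 3 members gave no value. Without detection calls, signal over background limits all values under the limit.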
